A study of Mus musculus with 6 samples.

Results

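The abundance of 5 mature miRNAs that mark liver tissue was followed: miR-122-5p, miR-122-3p, miR-192-5p, miR-194-5p and miR-802-5p. They were matched by name and made up 5 of the 1906 mature miRNAs in each count table, and all 5 had reads in EVs and in cells. The EV group held 3 libraries of the vesicle pellet from primary oligodendrocyte cultures of C57BL/6N mice, taken at 5 to 6 days in vitro. The cell group held 3 libraries of whole cells of such cultures at 6 days in vitro. The mice of both groups were at embryonic day 14, and their cells were kept in Sato medium holding 1% horse serum and were then washed. Vesicles were gathered over 24 h in Sato medium without serum but with B27, a supplement for neural cultures, and the final spin was at 100000 g for 2 h. By its title, the study asked whether such supplements bring miRNAs that purify together with vesicles. Libraries of medium alone were not analysed here, and the counts stand under mouse names with no reads behind them, so the origin and the species of each RNA were not tested.

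miR-122 is the dominant miRNA of hepatocytes, is known for its part in cholesterol and lipid metabolism, and is found in blood plasma, where it increases after liver injury. miR-192 and miR-194 are made in liver and in the epithelium of gut and kidney, and their hairpins lie close together and can be cut from a shared primary transcript. miR-802 is known from liver and pancreas of mice. Oligodendrocytes, which make myelin in brain and spinal cord, are not known for any of the 5.

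The mature sequences show which members can be told apart by their reads. They are from RefSeq on build GRCm38.p6, run 5′ to 3′, and carry the seed, bases 2 to 8, in capitals. The table held 3 of the 5 members, and miR-215-5p was added as the relative of miR-192-5p. No sequence is shown for miR-122.
miR-192-5p: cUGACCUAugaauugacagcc
miR-215-5p: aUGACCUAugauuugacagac
miR-194-5p: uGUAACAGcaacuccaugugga
miR-802-5p: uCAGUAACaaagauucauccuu
miR-192-5p and miR-215-5p shared their seed and differed at 3 of 21 positions counted from the 5′ end of miR-192-5p (C1A, A12U and C20A). Among mouse mature miRNAs of the table, the seeds of miR-194-5p and miR-802-5p were found in these miRNAs alone. In GRCm38.p6, miR-192-5p lies on the plus strand at chr19:6264857-6264877, and 115 bases separate its hairpin from that of Mir194-2, with no other gene annotated over either by GENCODE. The same miR-194-5p sequence is encoded at chr19:6264658-6264679 in Mir194-2 and at chr1:185313325-185313346 in Mir194-1, both on the plus strand, so its reads cannot be assigned to either gene. The copy on chromosome 1 lies in an intron of 2010103J01Rik, a noncoding RNA gene antisense to Iars2, and 195 bases separate its hairpin from that of Mir215. miR-802-5p lies at chr16:93369737-93369758 on the plus strand, outside other annotated genes. The deposited counts were made on another build, mm9, and these positions were not used for any value.

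Total counts were 313766 to 689475 in the EV libraries and 126910 to 202358 in the cell libraries. A read was thus worth 1.45 to 3.19 CPM (a read count divided by its library total and multiplied by 1e6) in EVs, against 4.94 to 7.88 CPM in cells. A count of 0 allows up to 3 reads, or 4.35 to 9.56 CPM in EVs, against 14.8 to 23.6 CPM in cells. These floors and the intervals below cover counting error only. A list of 8 neural miRNAs was read beside the cell type on the labels. All 8 had reads in both groups, and their summed level was 242363 to 311771 CPM in the EV libraries, against 261527 to 300636 CPM in the cell libraries. In the cell libraries miR-9-5p alone stood at 165973 to 192907 CPM. The list includes miR-219a and miR-338 of oligodendrocytes, and also miR-124-3p of neurons, which had 4477 reads in the cell libraries. Its sum therefore does not single out oligodendrocytes. In the edgeR test below, 4 of the 8 were higher in EVs and 3 lower, beside 28.6% and 28.9% of all tested miRNAs. When a library was left out, 1 to 4 were higher and 3 lower. In bulk RNA, fewer cells of a type and less RNA per cell cannot be told apart.

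Of the 5 liver miRNAs, 2 were called higher in EVs than in cells, and the other members were not called. miR-122-5p moved most and miR-192-5p less, while miR-194-5p, whose hairpin lies beside that of miR-192, stood at a similar CPM in both groups. miR-802-5p and miR-122-3p had few reads in every library. Together the 5 held 0.844%, 0.620% and 1.12% of counts in EVs replicates 1 to 3, against 0.0563%, 0.0701% and 0.0697% in Cells replicates 1 to 3. A miRNA was called at a Benjamini-Hochberg (BH) adjusted p below 0.05 in edgeR's quasi-likelihood test, scaled by trimmed mean of M-values (TMM) and adjusted over all 336 miRNAs that passed its count filter. Of the 5 members, 3 passed that filter. It asks for a sufficient count in at least 3 libraries, and miR-122-5p, with 7, 6 and 5 reads in cells, met it only through its EV libraries. Its entry into the test thus rests on the group where it was high. Of these 3, 2 were higher and 0 lower, as with DESeq2 and limma-voom. Of all tested miRNAs 57.4% were called, 28.6% as higher and 28.9% as lower. The CPM of the groups did not overlap for the same 2 members, with every EV library above, as was the case for 47.3% of all tested miRNAs.

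**Figure D1:**
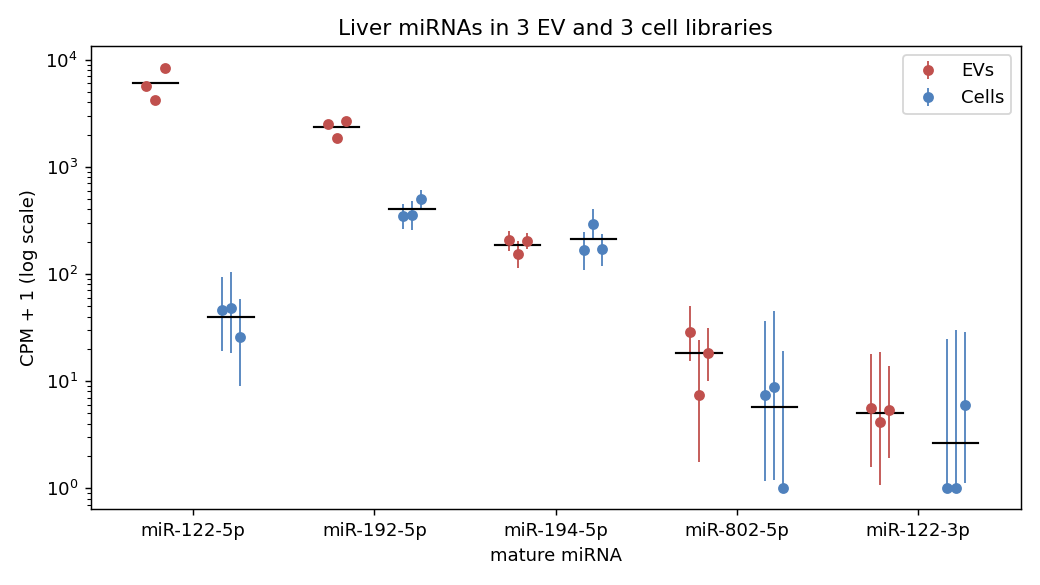
CPM + 1 on a log axis for each liver miRNA, with EV libraries left of cell libraries; points are libraries, bars are 95% exact binomial intervals of counting error and black lines are group means. miR-122-5p lies between 4194 and 8316 CPM in EVs and between 24.7 and 47.3 CPM in cells, while the groups overlap for miR-194-5p, miR-802-5p and miR-122-3p.

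miR-122-5p, the guide strand of the miR-122 hairpin, had 2461, 1316 and 5734 reads in EVs replicates 1 to 3, against 7, 6 and 5 reads in Cells replicates 1 to 3. In CPM this was 5710, 4194 and 8316 in EVs, against 44.8, 47.3 and 24.7 in cells. Every EV library was far above every cell library, and the highest EV value was that of replicate 3. Its log2 fold change of 6.84 had an SE of 0.37 and, by edgeR, an adjusted p of 2.58e-06, the smallest p and the next to largest fold change of the 336 tested. By abundance it ranked 42, 46 and 30 among the 1906 miRNAs in EVs, against 290, 290 and 351 in cells. Its cell level was low but above a count of 0 in each library, with exact binomial intervals of 18.0 to 92.3, 17.4 to 102.9 and 8.02 to 57.7 CPM in Cells replicates 1 to 3.

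miR-122-3p, the passenger strand of the same hairpin, had 2, 1 and 3 reads in EVs, against 0, 0 and 1 in cells. It stood at 4.64, 3.19 and 4.35 CPM in EVs and reached 4.94 CPM in Cells replicate 3, so the groups overlapped. The 3p arm held 6 of 9517 reads of the hairpin in EVs, or 0.0630% (95% exact binomial interval 0.0231 to 0.137), against 1 of 19 reads in cells, or 5.26% (0.133 to 26.0). These intervals overlap only narrowly, and the share in cells rests on 1 read of the 3p arm. Overlap of intervals is not a test, and whether the arm balance differed was not tested.

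miR-192-5p, which shares its seed with miR-215-5p as printed above, had 1076, 579 and 1852 reads in EVs, against 54, 45 and 101 in cells. This was 2496, 1845 and 2686 CPM in EVs, against 345.7, 354.6 and 499.1 CPM in cells. The groups were well apart, and EVs replicate 2 was the lowest EV library, as for miR-122-5p. Its log2 fold change of 2.07 had an SE of 0.23 and, by edgeR, an adjusted p of 9.46e-05. It ranked 66, 75 and 66 by abundance in EVs, against 144, 150 and 128 in cells, so unlike miR-122-5p it was a moderately abundant miRNA of the cell libraries as well. With reads pooled over a group, its share was 5.94 times as high in EVs (95% exact interval of counting error 5.15 to 6.88).

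The passenger strand miR-192-3p had 5, 0 and 4 reads in EVs, against 0, 1 and 0 in cells. The 3p arm made up 0.256% of the hairpin's reads in EVs (95% exact binomial interval 0.117 to 0.485) and 0.498% in cells (0.0126 to 2.74), again with intervals that overlap. miR-215-5p had 13, 3 and 6 reads in EVs, against 3, 0 and 0 in cells, and did not pass the count filter. Its pooled share was 2.48 times as high in EVs, but the 95% exact interval of counting error ran from 0.746 to 12.95. Reads of this seed pair were therefore almost all counted as miR-192-5p, and the rule for reads that match both is not given in the sources used here.

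miR-194-5p had 88, 48 and 139 reads in EVs, against 26, 37 and 34 in cells. The CPM were 204.2, 153.0 and 201.6 in EVs, against 166.5, 291.5 and 168.0 in cells, and the groups overlapped, with Cells replicate 2 above the rest. The log2 fold change with TMM scaling was -0.60 (SE 0.26, edgeR BH-adjusted p = 0.0716), so it was not called, though its unadjusted p was 0.0441. With library size as the only scaling it was -0.13 (SE 0.29, edgeR BH-adjusted p = 0.703), and without Cells replicate 2 it was -0.35 (SE 0.28, edgeR BH-adjusted p = 0.33). The pooled share in EVs was 0.960 times that in cells (95% exact interval of counting error 0.759 to 1.22). Of the passenger strands of its 2 hairpins, miR-194-1-3p had no read in any library and miR-194-2-3p had 1 read in EVs and 2 in cells.

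miR-802-5p was near the floor of detection. It had 12, 2 and 12 reads in EVs, against 1, 1 and 0 in cells, which gave 27.8, 6.37 and 17.4 CPM in EVs, against 6.40, 7.88 and 0 CPM in cells. EVs replicate 2 lay below 2 of the cell libraries, so the groups overlapped. The pooled share was 4.40 times as high in EVs, with a 95% exact interval of counting error of 1.10 to 38.2 that rests on 2 cell reads. miR-802-5p did not pass the count filter, and when every miRNA with a count was tested its log2 fold change was 1.69 (SE 0.96, edgeR BH-adjusted p = 0.242). Its passenger strand miR-802-3p had 1 read in EVs and 0 in cells.

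The order of the members differed between the groups. In each EV library it ran from miR-122-5p over miR-192-5p, miR-194-5p and miR-802-5p to miR-122-3p, and the ranges of neighbours over the 3 libraries did not overlap, although miR-802-5p and miR-122-3p had only 2 and 1 reads in EVs replicate 2. In the cells miR-192-5p came first, followed by miR-194-5p and then miR-122-5p, also without overlap, while miR-802-5p and miR-122-3p overlapped. Mature miRNAs are of like length, but adapters ligate to different sequences with different efficiency, so an order within a library is one of reads. Of the reads of the 5 miRNAs, miR-122-5p took 67.6%, 67.6% and 74.1% in EVs replicates 1 to 3, against 7.95%, 6.74% and 3.55% in Cells replicates 1 to 3. miR-194-5p took 2.42%, 2.47% and 1.796% in EVs, against 29.5%, 41.6% and 24.1% in cells.

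**Figure D2:**
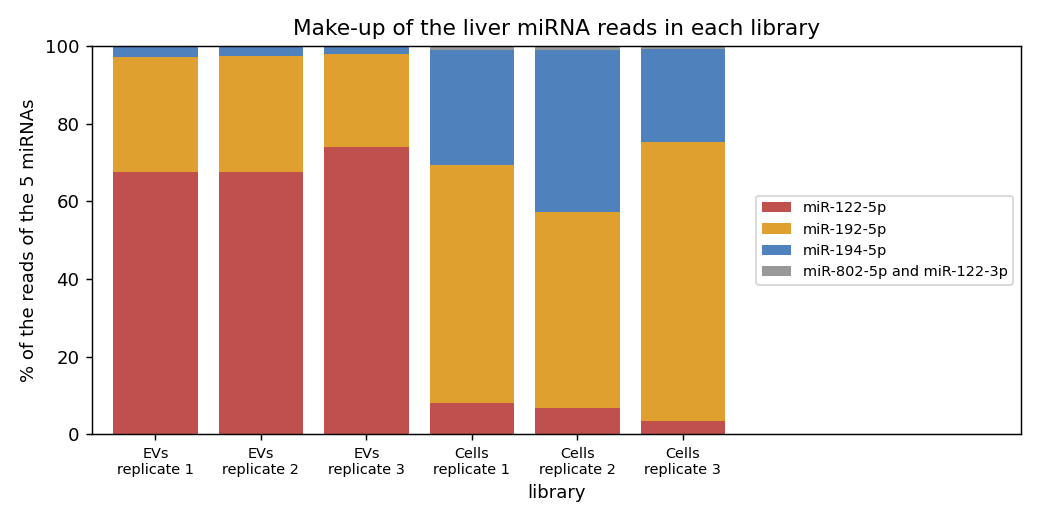
Share of the reads of the 5 liver miRNAs that belongs to each, as stacked bars in percent for 3 EV libraries and 3 cell libraries. miR-122-5p takes 67.6% to 74.1% in EVs and 3.55% to 7.95% in cells, where miR-192-5p takes 50.6% to 71.6%.

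Ratios between 2 miRNAs of a library do not depend on scaling between libraries. A total of 6 pairs was compared by exact permutation of log2 ratios with a pseudocount of 0.5, two-sided, where 3 against 3 libraries cannot give a p below 0.1. miR-122-5p had 2.29, 2.27 and 3.10 reads per read of miR-192-5p in EVs, against 0.130, 0.133 and 0.0495 in cells. The mean log2 ratio was 1.34 ± 0.26 in EVs and -3.29 ± 0.79 in cells (SD, n = 3 each), a difference of 4.63 (exact permutation p = 0.1, BH-adjusted p = 0.15). EVs replicates 1 and 2 were nearly equal in this ratio and replicate 3 was higher. All 3 EV libraries were above all 3 cell libraries.

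The ratio of miR-192-5p to miR-194-5p, whose chromosome 19 hairpins are close neighbours, was the most even within the EV group. It was 12.2, 12.1 and 13.3 in EVs, against 2.08, 1.22 and 2.97 in cells. The mean log2 ratio was 3.64 ± 0.08 in EVs and 0.96 ± 0.64 in cells (SD, n = 3 each), a difference of 2.68 (exact permutation p = 0.1, BH-adjusted p = 0.15). The EV libraries thus held 6.41 times as many miR-192-5p reads per miR-194-5p read, and the groups did not overlap. The cell ratios rest on 26 to 37 reads of miR-194-5p per library. How reads that match both miR-194 genes were counted could shift the level of this ratio in every library. For miR-122-5p to miR-194-5p the ratio was 27.97, 27.4 and 41.3 in EVs, against 0.269, 0.162 and 0.147 in cells, a difference of 7.31 on the log2 scale (exact permutation p = 0.1, BH-adjusted p = 0.15).

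**Figure D3:**
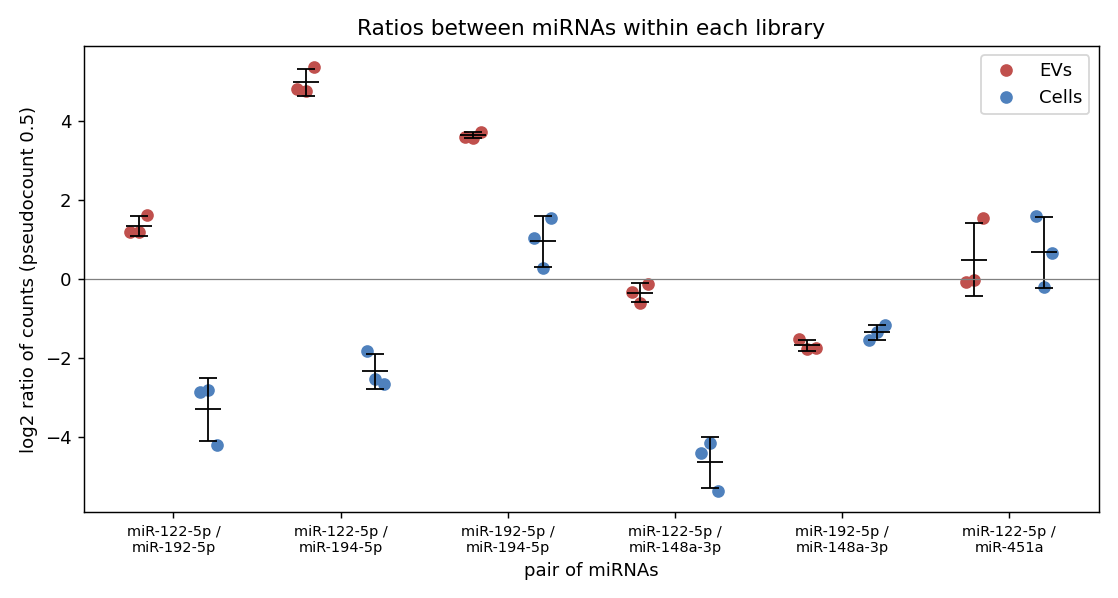
Log2 ratio of the counts of 2 miRNAs in each library (pseudocount 0.5), EV libraries left of cell libraries; points are libraries and black bars are mean ± SD, n = 3. The 3 ratios among members and that of miR-122-5p to miR-148a-3p are higher in all EV libraries, while those of miR-192-5p to miR-148a-3p and of miR-122-5p to miR-451a overlap.

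The members were then set beside the miRNAs with the nearest profiles, by the Euclidean distance between log2 CPM values over the 6 libraries, each centred on its own mean. For miR-122-5p the nearest of 335 miRNAs was miR-451a, known from red blood cells, at a distance of 1.795 log2 units, where the median over all was 8.09. Next came miR-145a-5p (4.10), miR-344f-5p (4.64), miR-341-3p (4.74) and miR-376a-3p (5.15). Their log2 fold changes of 2.58 to 3.57 were well below the 6.84 of miR-122-5p, so they were next in order but not close. miR-122-5p had 0.955, 0.980 and 2.93 reads per read of miR-451a in EVs, against 3.50, 0.857 and 1.67 in cells. The log2 ratios overlapped, at 0.48 ± 0.92 in EVs and 0.68 ± 0.90 in cells (SD, n = 3 each). As miR-451a is the nearest profile over these same libraries, this ratio is given as a description, without its p. In EVs replicate 3 miR-122-5p was at its highest and miR-451a, at 2841 CPM, at its lowest among EV libraries.

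For miR-192-5p the nearest profile was that of miR-148a-3p, a miRNA abundant in liver and also made in many other tissues, at a distance of 0.53 log2 units, where the median over all was 2.63. It was followed by miR-486b-5p, which may share its reads with miR-486a-5p (0.59), miR-32-5p (0.69), miR-193b-3p (0.72) and miR-376b-3p (0.80). miR-192-5p had 0.350, 0.291 and 0.298 reads per read of miR-148a-3p in EVs, against 0.344, 0.391 and 0.447 in cells. These ranges overlap, and the difference of the log2 ratios was -0.34, which is likewise a description for a nearest profile. miR-122-5p, by contrast, had 0.802, 0.662 and 0.922 reads per read of miR-148a-3p in EVs, against 0.0446, 0.0522 and 0.0221 in cells, a difference of 4.29 on the log2 scale (exact permutation p = 0.1, BH-adjusted p = 0.15). For miR-194-5p the nearest profiles were miR-501-3p (0.35), miR-433-3p (0.46), miR-1843b-5p (0.57), miR-138-1-3p (0.65) and miR-298-5p (0.67), with a median over all of 1.66.

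Lists of miRNAs of other tissues placed the members among them. Of 10 further miRNAs abundant in liver, 7 were tested. Of these 7, 3 rose and 0 fell, where 28.6% of all tested miRNAs rose and 28.9% fell. The median log2 fold change of the 7 was 0.52, where that of all tested miRNAs was 0.06. None of the 7 fell at an unadjusted p below 0.05, or with DESeq2 or limma-voom. miR-455-3p of this list was not tested, with 22 reads in EVs and 33 in cells, or 11.6 to 18.9 CPM in EVs, against 25.6 to 119 CPM in cells, and edgeR called it lower when Cells replicate 1 was left out, and likewise under a 10 CPM filter or under none. miR-148a-3p rose to 7493 ± 1381 CPM in EVs, against 1009 ± 105 CPM in cells (SD, n = 3 each), and its log2 fold change was 2.41 (SE 0.21, adjusted p = 2.36e-05 by edgeR). miR-193b-3p rose to 119.9 ± 29.7 CPM in EVs, against 25.3 ± 9.42 CPM in cells, and its log2 fold change was 1.71 (SE 0.40, adjusted p = 0.00519 by edgeR). With 4, 2 and 7 reads in Cells replicates 1 to 3, it passed the count filter only through its EV libraries, where it was high. miR-30a-5p rose as well (log2 fold change 0.53, SE 0.18, edgeR adjusted p = 0.0327), but was not called when EVs replicate 1 (0.44), Cells replicate 2 (0.41) or Cells replicate 3 (0.48) was left out. miR-22-3p, miR-101b-3p, miR-365-3p and miR-378a-3p, which many tissues also make, lay between -0.62 and 0.52 and were not called. Of these, miR-378a-3p was called higher with no filter (0.68), with a filter of 10 CPM (0.58) and without Cells replicate 1 (0.81), and miR-365-3p, the lowest, was at -0.05 without Cells replicate 3. With library size as the only scaling 6 of the 7 were called higher. In that setting 148 of all 336 tested miRNAs were called higher, and their median log2 fold change was 0.54 over all 336.

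miR-192 and miR-194 are also epithelial miRNAs, so a list of 8 miRNAs of epithelium was read beside them. Its summed level was 79.7 to 167 CPM in EVs, against 134 to 153 CPM in cells, with overlap, and its 1 tested member, miR-203-3p, was not called (log2 fold change -0.10, edgeR adjusted p = 0.851, and 0.38 with library size as the only scaling). Untested members had few reads, and their values differed in direction. miR-200a-3p, a marker of epithelium, had 27 reads in EVs and 1 in cells, and its CPM was higher in all 3 EV libraries. miR-200c-3p of the same family had 9 reads in EVs and 7 in cells, and miR-31-5p had 16 in EVs and 22 in cells, and the CPM of both was lower in all 3 EV libraries. As miR-802 is known from pancreas too, 5 miRNAs of that organ were read. miR-216a-5p and miR-216b-5p of acinar cells were at 0 in all 6 libraries, and miR-217-5p had 4 reads in EVs and 0 in cells. miR-375-3p of islets had 10, 2 and 9 reads in EVs, against 28, 4 and 4 in cells. The part of such tissues in the miR-192, miR-194 and miR-802 counts was not tested.

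Blood carries miR-122 beside red cell miRNAs, so 6 miRNAs of blood were read as well. Their summed level was 4047 to 7979 CPM in EVs, against 283.7 to 365.7 CPM in cells. Of 3 tested, 2 rose and 0 fell, where 28.6% of all tested miRNAs rose and 28.9% fell. Of the 3, 0 fell at an unadjusted p below 0.05 or with DESeq2 or limma-voom. The 2 that rose were miR-451a (6.97, SE 0.50, edgeR BH-adjusted p = 1.19e-05) and miR-486a-5p (2.20, SE 0.29, edgeR BH-adjusted p = 0.000279), both of red cells. miR-451a, with 2, 7 and 3 reads in Cells replicates 1 to 3, passed the count filter only through its EV libraries, where it was high. miR-144-3p, encoded beside miR-451a, had 44, 17 and 18 reads in EVs, against 0, 1 and 0 in cells. miR-223-3p of myeloid cells stood at -1.01 (SE 0.53, edgeR BH-adjusted p = 0.125), and at -0.017 without Cells replicate 3, which held 31 of its 42 reads in cells. The part of blood in the miR-122-5p counts was not tested.

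**Figure D4:**
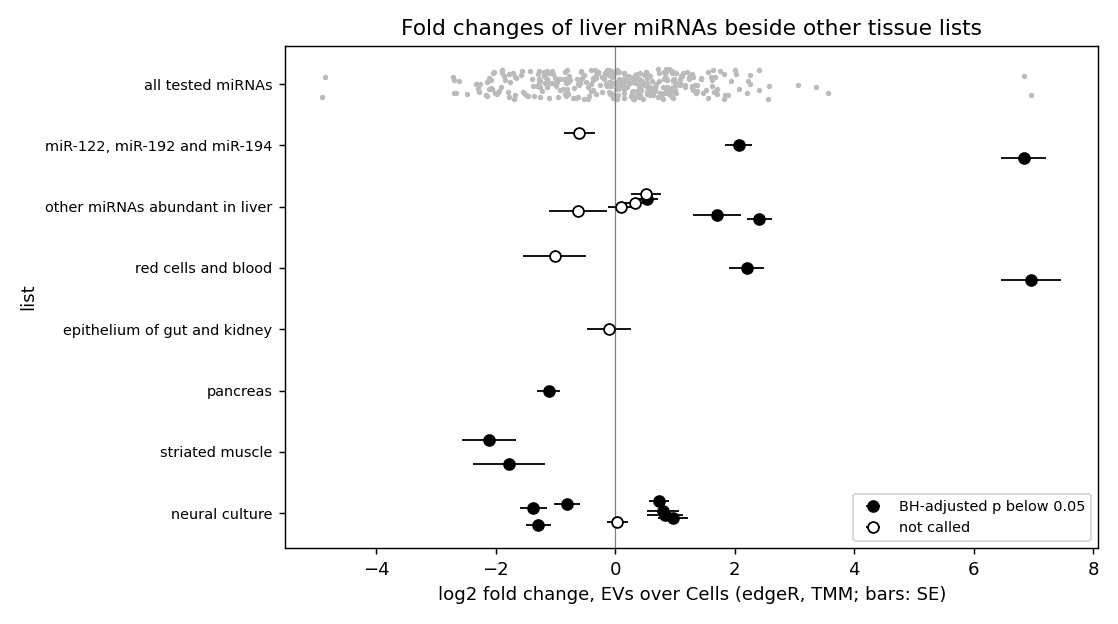
Log2 fold change, EVs over Cells, of the tested members of each list (bars are SE), with all 336 tested miRNAs as grey points in the top row; filled points are called at a BH-adjusted p below 0.05 and vertical offsets only separate points. miR-122-5p and miR-451a lie near 7, apart from the other tested miRNAs, and miR-192-5p lies close to miR-148a-3p.

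Scaling and single libraries changed no call of a member. Over 15 alternatives the log2 fold change of miR-122-5p lay between 6.51 and 7.32 and that of miR-192-5p between 1.96 and 2.54, called in each. That of miR-194-5p lay between -0.79 and -0.13 and was called in none of the 15, with adjusted p-values of 0.0531 to 0.703.

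**Figure D5:**
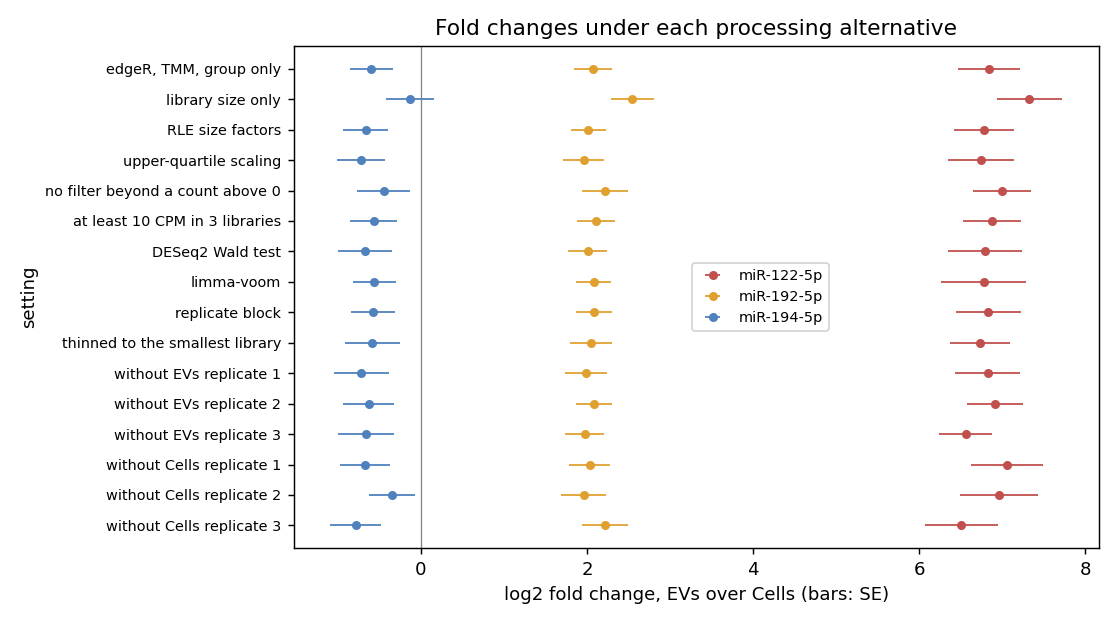
Log2 fold change, EVs over Cells, of the 3 tested members under the edgeR fit and 15 alternatives, with bars for SE. miR-122-5p stays between 6.51 and 7.32, miR-192-5p between 1.96 and 2.54 and miR-194-5p between -0.79 and -0.13.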

How the data were processed

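Small RNA of 15 to 200 nt was sequenced from 3 EV and 3 cell libraries. The authors deposited 1 table of unscaled read counts of mature miRNAs for each library. Per the submitters' processing notes, cutadapt 1.7.1, Bowtie 0.12.8, featureCounts 1.4.6-p4 and the mouse build NCBIM37 (mm9) were used. Program settings, the treatment of reads with several matches, strand use and the removal of PCR duplicates were not given in the sources used here.

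Libraries were grouped and numbered by their labels. As these name no separate cultures, the p-values cover the spread between these libraries, which may be technical. EVs were compared with cells by edgeR 4.0.16 (glmQLFit, glmQLFTest, two-sided, R 4.3.3) after TMM and filterByExpr at a minimum count of 10. BH adjustment ran over 336 miRNAs. CPM carry no TMM factor. The fit was tested on simulated data. The alternatives were other scalings and filters, DESeq2 1.42.0, limma-voom (limma 3.58.1), thinning to 126910 counts, the replicate number as a block and leaving out each library.

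Deviations from the group means correlated weakly between EV and cell libraries of the same number (0.115, 0.103 and 0.254 over 336 miRNAs, and -0.14 to 0.02 between different numbers). As deviations within a group cancel out, correlations of the same and of different numbers are not independent of each other. The number was used as a block in an alternative. The printed fit and the ratio tests are unpaired.

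The text names the members, their hairpin and seed partners, members of 6 tissue lists and the 5 nearest profiles of each tested member. Members and lists were chosen with earlier results of these data known.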

Additional observations from a re-analysis of the deposited data

How the results depend on the processing

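All 45 alternative values of the 3 tested members kept their direction and their side of the threshold. With the replicate number as a block, the log2 fold changes were 6.83 for miR-122-5p, 2.08 for miR-192-5p and -0.58 for miR-194-5p, and no call of a member changed. Over all tested miRNAs, library size as the only scaling gave 148 higher and 60 lower, in place of 96 and 97, and a median log2 fold change over all tested miRNAs of 0.54, in place of 0.06. When a library was left out, 66 to 101 were higher and 88 to 98 lower. In these runs, where the filter kept other sets of miRNAs, the list of further liver miRNAs had 2 to 4 higher and 0 to 1 lower. The blood list had 2 to 4 higher and 0 lower, the muscle list 0 higher and 1 to 3 lower, and the epithelium list 0 higher and 0 to 1 lower. The pancreas list kept 0 higher and 1 lower. The difference in the log2 ratio of miR-122-5p to miR-451a changed sign when a library was left out (-0.72 to 0.26). The other 5 ratios kept their direction in each alternative run.

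Among other named miRNAs, none called in the edgeR fit with TMM changed sign. Uncalled values crossed 0 for miR-22-3p (upper-quartile scaling -0.011, leaving out a library -0.081 to 0.21), miR-203-3p (library size only 0.38, no filter 0.043, leaving out a library -0.30 to 0.019), miR-433-3p (library size only 0.062) and miR-9-3p (DESeq2 and its size factors -0.029, upper-quartile scaling -0.10, thinning -0.0045, leaving out a library -0.13 to 0.19). The cause was not tested. Depth limits miRNAs with few reads in cells, among them miR-122-3p, miR-802-5p and miR-215-5p, with 1 to 3 reads over the cell libraries.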

Other observations

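Of 5 striated muscle miRNAs on a list, 2 were tested and both were called lower, as were 28.9% of all tested miRNAs. The untested miR-133a-3p had 45 reads in EVs and 21 in cells, and miR-133b-3p had 4 in EVs and 2 in cells. The CPM of the groups overlapped for both of these. miR-206-3p, a miRNA of skeletal muscle, had 89, 38 and 322 reads in EVs, against 162, 62 and 183 in cells, which is 264.9 ± 180 CPM in EVs and 810 ± 286 CPM in cells (SD, n = 3 each), with a log2 fold change of -2.11 (SE 0.46) and an edgeR adjusted p of 0.00369. miR-1a-3p stood at -1.78 (SE 0.60, edgeR adjusted p = 0.0291) and was not called with library size as the only scaling (-1.28), nor when EVs replicate 1 (-1.62), Cells replicate 1 (-1.49) or Cells replicate 2 (-1.85) was left out. It passed the count filter only through its cell libraries, where it was higher. miR-208b-3p of heart was at 0 in all 6 libraries. miR-7a-5p, on the pancreas list but also made in brain, was lower in EVs, with a log2 fold change of -1.11 (SE 0.19) and an edgeR adjusted p of 0.0013.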
